A study of Mus musculus with 6 samples.

Results

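The clonotypes described here were found in the distant tumor of a mouse and not in its treated tumor. A clonotype is a combination of a TRBV gene, a TRBJ gene and a complementarity-determining region 3 (CDR3, given as amino acids) of the T cell receptor β chain, with no stop or frame mark. The members were selected on measured values: at least 10 reads in a distant tumor library and 0 reads in the treated tumor library with the same title number. The rule found 839 members in number 1 and 466 in number 2, which makes 1305 of the 187625 clonotypes of the series. Of these, 4 clonotypes were members in both numbers, so 1301 were distinct. They are called distant-only clonotypes.

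The receptor of an αβ T cell is assembled by joining V, D and J gene segments, and nucleotides are trimmed and added at the joints. The CDR3 loop spans the joint, starts at a conserved cysteine of the V gene, ends at a conserved phenylalanine of the J gene and makes most of the contact with the peptide on a major histocompatibility molecule. T cells descended from one rearranged cell share a clonotype, so a clonotype with many reads in a tumor can mark cells that divided. T cells primed in a lymphoid organ can reach several tumor sites through the blood, and the spleen samples the circulating pool.

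All mice were C57BL/6. Each received 100000 MO4 cells, a B16F10 melanoma line expressing ovalbumin, subcutaneously in the left and the right hindlimb at day 0. IFN-α-iPSC-pMC cells (1000000) were injected beside the right tumor 5 times, at days 5 to 7, 12 and 13, and tissue RNA was taken at day 14. The right tumor is the treated tumor, the left one received no injection and is the distant tumor, and spleen is the third tissue. No mouse without the injected cells is among the 6 libraries, so the injection and the side cannot be told apart in what differs between the tumors. Productive reads numbered 83171 in treated tumor 1, 82142 in distant tumor 1 and 96907 in spleen 1. They numbered 56057 in treated tumor 2, 42320 in distant tumor 2 and 135599 in spleen 2. With 0 reads, the share in the treated tumor can be up to 3 reads, which is 0.00361% in number 1 and 0.00535% in number 2. With the distant tumor count taken as exact, that limit puts a member at 10 reads 3.38-fold or more above the treated tumor in number 1. In number 2 the bound is 4.42-fold. Counting error of the distant tumor reads is not in these bounds. They rest on the reads that the rule used, so they describe the selection and test nothing. Across the members, 173 of 839 and 126 of 466 had a bound of 10-fold or more. No tumor-infiltrating cells were sorted in the protocol given, so fewer T cells of a clonotype and less receptor RNA per cell cannot be told apart.

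The CDR3 sequences of the leading members carry the description of size, and are given where they have at most 14 residues. They come from the 10 largest members of each number:
TRBV16/TRBJ2-7, number 1: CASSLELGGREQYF
TRBV16/TRBJ2-5, number 1: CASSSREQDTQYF
TRBV16/TRBJ1-4, number 1: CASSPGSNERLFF
TRBV26/TRBJ2-5, number 1: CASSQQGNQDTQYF
TRBV13-2/TRBJ2-7, number 1: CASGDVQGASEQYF
TRBV3/TRBJ1-4, number 2: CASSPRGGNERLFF
TRBV5/TRBJ1-1, number 2: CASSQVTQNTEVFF
TRBV4/TRBJ2-3, number 2: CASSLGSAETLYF
TRBV20/TRBJ2-5, number 2: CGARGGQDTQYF

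The germline ends of the genes on which the usage results and the shortest joints turn are given as DNA, 5′ to 3′ on the coding strand, with the bases that code for the CDR3 in capitals. They come from the GENCODE M21 annotation of GRCm38, where all of these genes lie on mouse chromosome 6, and the V sequences are the last bases of the V exon. TRBV16 lies at chr6:41151740-41152230, TRBV31 at chr6:41557691-41558452 on the minus strand, TRBV13-1 at chr6:41116007-41116468, TRBJ1-6 at chr6:41535554-41535606 and TRBJ2-7 at chr6:41543810-41543856.
TRBV16: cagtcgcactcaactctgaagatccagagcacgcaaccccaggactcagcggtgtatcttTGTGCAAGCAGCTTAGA
TRBV31: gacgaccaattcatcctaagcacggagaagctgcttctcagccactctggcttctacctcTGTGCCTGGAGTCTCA
TRBV13-1: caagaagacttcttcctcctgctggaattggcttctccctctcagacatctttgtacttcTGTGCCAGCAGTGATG
TRBJ1-6: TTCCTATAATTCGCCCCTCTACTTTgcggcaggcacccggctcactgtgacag
TRBJ2-7: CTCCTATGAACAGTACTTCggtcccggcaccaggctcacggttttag

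Distant-only clonotypes held 36.0% of the productive reads of distant tumor 1 and 33.9% of those of distant tumor 2. Most were small: the median was 17 reads in number 1 and 15 in number 2, and 483 of 839 and 310 of 466 had fewer than 20 reads. Only 10 members of number 1 and 17 of number 2 reached 100 reads. The 10 largest held 38.7% of the member reads in number 1 and 31.1% in number 2. Just inside the read minimum, 80 and 61 members had exactly 10 reads, and just outside it 93 and 74 clonotypes had 9 reads and 0 treated tumor reads. With at least 10 distant tumor reads but 1 treated tumor read, 15 and 4 clonotypes stayed outside the class. The clonotypes that both tumors of a number held (at least 10 distant tumor reads and at least 1 treated tumor read), called shared, numbered 244 and 132. The mirror class, called treated-only, had at least 10 treated tumor reads and 0 distant tumor reads. It numbered 1058 in number 1 and 407 in number 2 and held 42.6% and 42.5% of treated tumor reads.

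In number 1 a pair of clonotypes stood far above the other members. The largest, a TRBV29/TRBJ2-1 clonotype with a CDR3 of 15 residues, had 4949 reads in distant tumor 1, which is 6.02% of its reads (Wilson 95% interval 5.86% to 6.19%). It had 2 reads in spleen 1, 2 in spleen 2 and 0 in the other tumors. The next, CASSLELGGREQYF with TRBV16 and TRBJ2-7, had 4461 reads in distant tumor 1 (5.43%, interval 5.28% to 5.59%) and 0 in treated tumor 1. The same clonotype had 2172 reads in treated tumor 2 and 2494 in distant tumor 2, with 6 reads in spleen 1 and 5 in spleen 2. It was therefore at 3.87% to 5.89% of the reads in 3 of the 4 tumors, absent from the reads of the fourth, and a shared clonotype in number 2. The files hold no nucleotide sequences by which the rearrangements of both numbers could be compared, and carry-over of reads between libraries was not tested. Without these 2 largest clonotypes the members held 24.6% of the reads of distant tumor 1. The third member, a TRBV5/TRBJ1-1 clonotype of 15 residues, had 744 reads in distant tumor 1 and 0 in the other 5 libraries. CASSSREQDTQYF had 180 reads in distant tumor 1 and 8 in spleen 1, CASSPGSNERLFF 153 and 6, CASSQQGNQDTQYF 150 and 2, and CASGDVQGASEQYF 113 and 1, all at 0 in the other 4 libraries.

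Number 2 had no member as large as these, and its largest were closer in size. A TRBV5/TRBJ2-3 clonotype of 15 residues led with 993 reads in distant tumor 2 (2.35%, Wilson 95% interval 2.21% to 2.50%) and 1 read in spleen 2. A TRBV16/TRBJ1-1 clonotype followed with 862 reads and a TRBV5/TRBJ2-2 clonotype with 773, both of 15 residues and both at 0 in the other 5 libraries. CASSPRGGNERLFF (TRBV3/TRBJ1-4) had 461 reads and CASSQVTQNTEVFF (TRBV5/TRBJ1-1) 294, again at 0 elsewhere. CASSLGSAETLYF (TRBV4/TRBJ2-3) was different in that it had 220 reads in distant tumor 2 and 45 in spleen 2. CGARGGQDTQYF (TRBV20/TRBJ2-5) had 182 reads in distant tumor 2 and 0 in treated tumor 2, but 922 in treated tumor 1 and 281 in distant tumor 1. Of the 10 largest members, 4 in number 2 used TRBV5, and 3 in number 1 used TRBV16.

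Few members were seen in the other mouse's tumors. In number 1, 31 of 839 members (3.69%) had a read in a tumor of number 2, and in number 2, 30 of 466 (6.44%) had one in a tumor of number 1. Those of number 1 included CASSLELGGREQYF and most of its 1-residue variants described below. An example is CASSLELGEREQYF, with 9 reads in treated tumor 2 and 16 in distant tumor 2. Treated-only clonotypes had 4.54% and 3.69%, and shared clonotypes 17.2% and 25%. The share was 5.07% ± 1.94 (SD, n = 2) for distant-only and 4.11% ± 0.602 for treated-only clonotypes (exact permutation test, two-sided, p = 0.667, Benjamini-Hochberg adjusted p = 0.912). Such tests set 2 values against 2, cannot give a p below 0.333, and 26 were run. Against shared clonotypes the groups did not overlap (21.1% ± 5.51, p = 0.333 by exact permutation, adjusted p = 0.667), as in many of the 26 comparisons.

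The members in both numbers had modest read counts. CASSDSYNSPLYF (TRBV13-1/TRBJ1-6) had 27 and 39 reads in distant tumors 1 and 2 and was at 0 in both treated tumors and both spleens. Every residue of it is coded by the germline ends shown above, with none left over between V and J. A TRBV13-2/TRBJ2-2 clonotype of 14 residues had 68 and 17 reads in the distant tumors and 4 in spleen 1. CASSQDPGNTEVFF (TRBV5/TRBJ1-1) had 30 and 28 reads in the distant tumors and 1 in each spleen. A TRBV13-2/TRBJ2-4 clonotype of 16 residues had 14 and 10 reads and 2 in spleen 1. By the rule, any other member with at least 10 reads in the other number's distant tumor also had reads in its treated tumor. Over all members of number 1, 24 had reads in distant tumor 2 and 17 in treated tumor 2. In number 2, 18 members had reads in distant tumor 1 and 21 in treated tumor 1. Some had many reads in the treated tumor of the other number. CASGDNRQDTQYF (TRBV13-2/TRBJ2-5) had 42 reads in distant tumor 1 and 79 in treated tumor 2, and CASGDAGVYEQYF (TRBV13-2/TRBJ2-7) had 264 in treated tumor 1 beside its 15 in distant tumor 2.

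Distant-only clonotypes were found in the spleen of the same number more often than treated-only clonotypes and less often than shared ones, in both numbers. Of the distant-only members, 243 of 839 (29.0%) had at least 1 read in spleen 1 and 228 of 466 (48.9%) in spleen 2. The treated-only class had 17.3% and 27.0%, and the shared class 54.1% and 78.0%. Clonotypes of a number share a mouse and a spleen library, so no interval over clonotypes is given. As 2 values per class, distant-only (38.9% ± 14.1) and treated-only (22.2% ± 6.88) clonotypes did not overlap, nor did distant-only and shared ones (66.1% ± 16.9), each with p = 0.333 by exact permutation and an adjusted p of 0.667. The test cannot pass 0.05. Many of the 26 comparisons, such as the share of TRBJ1 genes against spleen clonotypes, did not overlap either. Within each number the direction was the same, at 11.7 and 21.9 percentage points over the treated-only class.

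The spleens differ in depth, and thinning spleen 2 to the 96907 reads of spleen 1 lowered its shares to 44.6% for distant-only and 22.8% for treated-only clonotypes. With at least 2 spleen reads required, the distant-only shares were 18.4% and 36.7% and the treated-only shares 9.74% and 14.3%. Larger distant-only and treated-only clonotypes were found more often than smaller ones, and the classes differ in size, so the comparison was repeated within ranges of tumor share chosen after the data were seen. Below 0.025% of the tumor's reads, 26.2% of distant-only and 13.5% of treated-only clonotypes of number 1 were in the spleen, and 31.1% and 25.6% of those of number 2. At 0.1% or more, 58.8% (10 of 17) and 23.4% (11 of 47) were found in number 1, and 61.1% (33 of 54) and 28.6% (30 of 105) in number 2. The distant-only share was above the treated-only share in all 4 size ranges of both numbers. It was below the shared class in each range but the last of number 1, where 57.4% (31 of 54) of shared clonotypes were found. The smallest difference was that of number 2 below 0.025%, where 19 of 61 distant-only and 10 of 39 treated-only clonotypes were found. These 61 members all had exactly 10 reads, which is 0.0236% of distant tumor 2. In treated tumor 2, 10 reads are 0.0178%, so the classes do not cover the same sizes in this range.

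**Figure D1:**
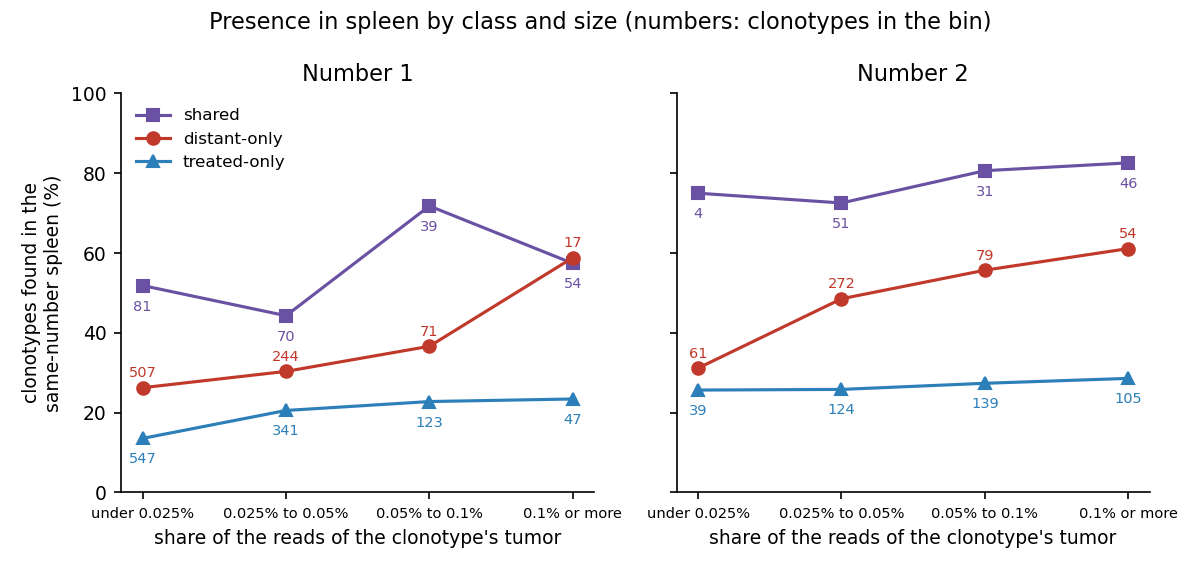
Share of clonotypes with at least 1 read in the spleen of the same number (y axis, percent) by the clonotype's share of its tumor's productive reads (x axis), for distant-only, treated-only and shared clonotypes of number 1 (left) and number 2 (right), where the number beside each point is how many clonotypes it covers. The distant-only line lies above the treated-only line in each range and ends at 58.8% and 61.1%.

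The spleen of the other number was read in the same way as a background. There, 13.3% of distant-only members of number 1 and 14.4% of those of number 2 were found, against 14.4% and 11.5% of treated-only clonotypes. The difference between these classes was -1.02 points in number 1 and 2.83 in number 2 (exact permutation p = 0.667, adjusted p = 0.912). Number 1 was sought in the deeper spleen 2. With spleen 2 thinned to 96907 reads, its shares were 11.3% for distant-only and 12.3% for treated-only clonotypes. Of the distant-only members, 537 of 839 and 220 of 466 were in neither spleen, and 524 and 215 were in no other library of the series.

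The members together held 1.04% of the reads of spleen 1 and 1.07% of spleen 2, against 36.0% and 33.9% of the distant tumors. They were selected by distant tumor reads and not by spleen reads, so a larger tumor share is built into the rule. Treated-only clonotypes held 0.691% of the reads of spleen 1 and 0.190% of spleen 2, and shared ones 1.73% and 1.57%. The members with the most spleen reads were mostly not among the largest in the tumor. An exception was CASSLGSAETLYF (TRBV4/TRBJ2-3), among the largest members of number 2, with 220 reads in distant tumor 2 and 45 in spleen 2. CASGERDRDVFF (TRBV13-2/TRBJ1-1) had 84 reads in spleen 1 and 13 in distant tumor 1, and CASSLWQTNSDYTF (TRBV15/TRBJ1-2) 51 and 44. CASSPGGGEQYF (TRBV12-2/TRBJ2-7) had 50 reads in spleen 1 and 45 in the tumor. In number 2, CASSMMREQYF (TRBV19/TRBJ2-7) had 63 reads in spleen 2 and 18 in distant tumor 2, and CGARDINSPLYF (TRBV20/TRBJ1-6) had 61 and 49. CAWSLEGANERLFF (TRBV31/TRBJ1-4) had 36 reads in each.

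**Figure D2:**
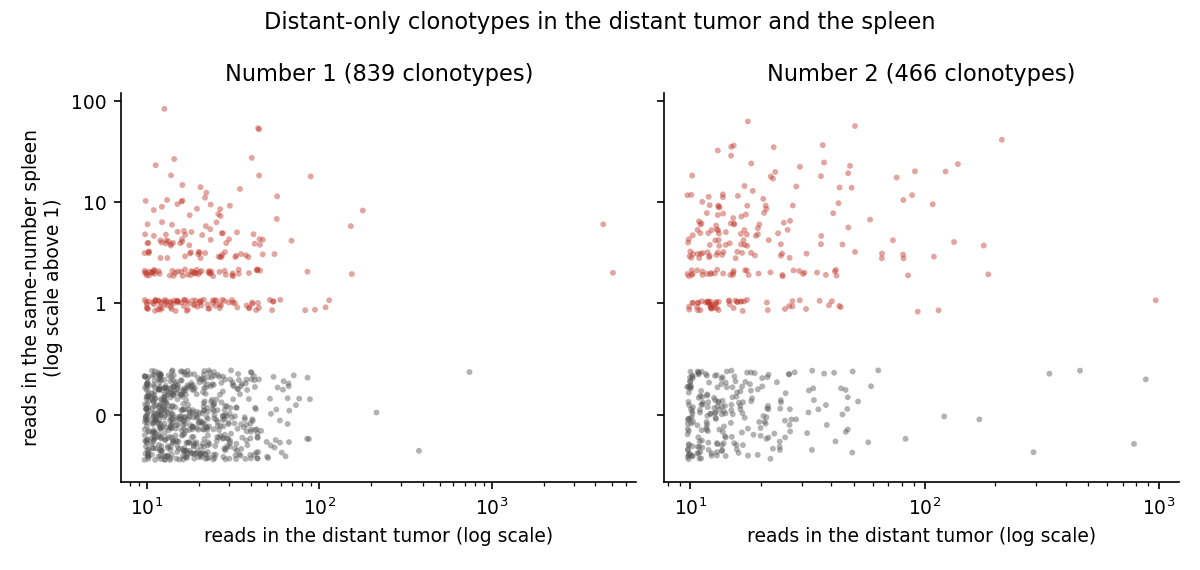
Reads of each distant-only clonotype in the distant tumor (x axis, log scale) and in the spleen of the same number (y axis, log scale above 1 read), for number 1 (839 clonotypes, left) and number 2 (466, right), with points shifted slightly at random so that they do not hide each other. Grey points are at 0 spleen reads, red points above 0, and the highest spleen counts, 84 and 63, belong to members of 13 and 18 tumor reads.

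TRBV13-2, TRBV16, TRBV5, TRBV12-1 and TRBV1 were the V genes with the most members, at 173, 115, 107, 91 and 85. Usage was tested with each clonotype counted once, so that a large clonotype weighs no more than a small one. TRBV16 was the V gene that differed from the treated-only class: 83 members of number 1 (9.89%) and 32 of number 2 (6.87%) used it, against 4.54% and 4.42% of treated-only clonotypes. The means were 8.38% ± 2.14 and 4.48% ± 0.0808 (SD, n = 2). The values of these classes did not overlap, but this held for most of the 19 TRBV genes tested, such as TRBV13-2 and TRBV14. The log2 fold change of TRBV16 was 0.95 with a standard error of 0.27 (edgeR quasi-likelihood test, Benjamini-Hochberg adjusted p = 0.0340). TRBV16 was the 1 gene called of 19 TRBV genes tested, or 5.26%. Shared clonotypes, which were not tested against the members, used TRBV16 at 6.97% and 12.1%. A share above the treated-only class was therefore not particular to the members. The spleens had 6.94% and 6.99%, above both treated-only values, below the distant-only value of number 1 and slightly above that of number 2, and TRBV16 in the distant-only class did not pass against them (log2 fold change 0.31, edgeR adjusted p = 0.500). The call was lost without the distant-only clonotypes of number 1 (log2 fold change 0.61, edgeR adjusted p = 0.369). It was also lost without the treated-only clonotypes of number 1 (adjusted p = 0.111) or of number 2 (adjusted p = 0.0719), at a minimum of 20 reads (1.17, adjusted p = 0.0662) and with spleen clonotypes of 2 or more reads in the fit (adjusted p = 0.0588). The log2 fold change stayed between 0.61 and 1.17 over the 11 alternatives, with adjusted p from 0.000331 to 0.369.

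TRBV16 members were spread over 12 TRBJ genes in number 1 and 9 in number 2. TRBJ2-7 was the most frequent in number 1 with 31 of 83, of which 10 are the variants of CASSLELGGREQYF described below, and TRBJ2-5 in number 2 with 8 of 32. Leaving out such variants lowered the log2 fold change against treated-only clonotypes to 0.86 and the edgeR adjusted p to 0.0174. In the spleen of the same number 32.5% and 34.4% of TRBV16 members were found.

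TRBV31, which lies at the far end of the locus in inverted orientation, was rarer among the members than in the spleens. It was used by 18 members of number 1 (2.15%) and 12 of number 2 (2.58%), against 6.05% and 5.13% of spleen clonotypes. The log2 fold change was -1.28 with a standard error of 0.29 (edgeR quasi-likelihood test, adjusted p = 0.00451), and it was 1 of 19 TRBV genes, or 5.26%, that passed in that comparison. Treated-only clonotypes stood between, at 4.06% and 3.19%, and the distant-only class did not pass against them (log2 fold change -0.71, edgeR adjusted p = 0.261). Shared clonotypes, not tested against the members, were also below the spleens, at 3.69% and 2.27%. Without the distant-only clonotypes of number 1 the log2 fold change against spleen was -1.12 and the edgeR adjusted p 0.262, and over the 11 alternatives the adjusted p ran from 0.000329 to 0.262.

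**Figure D3:**
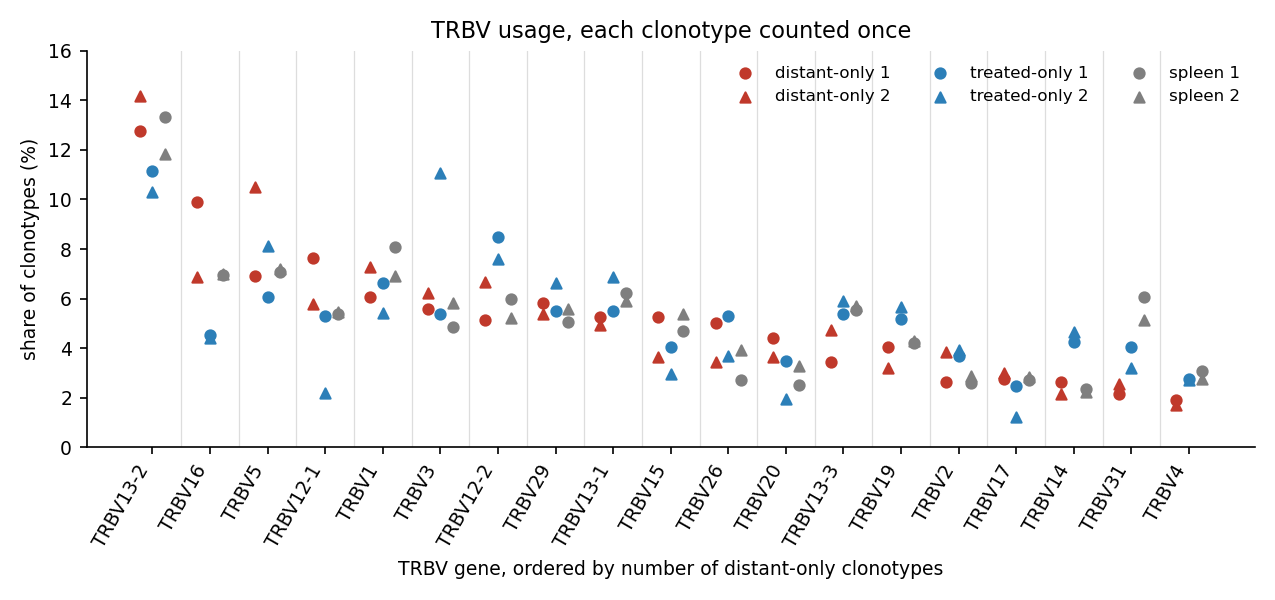
Share of clonotypes that use each TRBV gene (y axis, percent of the class, each clonotype counted once) for the 19 genes with at least 20 distant-only clonotypes, in distant-only (red), treated-only (blue) and spleen (grey) clonotypes, with circles for number 1 and triangles for number 2. For TRBV16 both red points lie above both blue ones, and for TRBV31 both red points, 2.15% and 2.58%, lie below both grey ones. Red and blue points are apart for most of the 19 genes, such as TRBV13-2 and TRBV14.

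Other V genes did not pass. TRBV14 was at 2.62% and 2.15% of the members and 4.25% and 4.67% of treated-only clonotypes (log2 fold change -0.85, edgeR adjusted p = 0.0588). TRBV12-1 was at 7.63% and 5.79% against 5.29% and 2.21% (log2 fold change 0.69, edgeR adjusted p = 0.261), and 20 of its 64 members of number 1 are the variants described below. TRBV13-2, the most used gene, was at 12.8% and 14.2% of the members and 13.3% and 11.8% of spleen clonotypes.

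TRBJ2-7 had the most members, at 19.3% in number 1 and 19.7% in number 2, followed by TRBJ2-5 at 10.3% and 15.2% and TRBJ2-1 at 11.7% and 9.44%. No TRBJ gene passed against treated-only clonotypes (0 of 12, or 0%, with 0 at an unadjusted p under 0.05 by edgeR and 0 after adjustment by DESeq2). Against spleen clonotypes 0 of 12, or 0%, passed by edgeR, with 1 at an unadjusted p under 0.05 and 1 after adjustment by DESeq2. That gene was TRBJ1-2, at 7.99% and 6.01% of members and 5.36% and 5.32% of spleen clonotypes, with a log2 fold change of 0.45 (edgeR adjusted p = 0.111, DESeq2 adjusted p = 0.0429). With 1-residue variants left out it was 0.15. The share of members with a TRBJ1 gene was 33.6% ± 1.14 (SD, n = 2), against 32.2% ± 2.38 of treated-only clonotypes (exact permutation p = 0.667).

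The CDR3 of a member had 13.9 residues on average in number 1 (SD 1.41 over members) and 13.8 in number 2 (SD 1.45), with a range of 9 to 19 and 10 to 18. A length of 14 was the most frequent, at 29.3% and 27.7% of members. Against the treated-only class the mean differed by 0.0925 residues in number 1 and -0.256 in number 2, so the direction was not the same (exact permutation p = 0.667). The members had a mean net charge of -0.423 and -0.485 in the CDR3 without its first and last 4 residues, and treated-only clonotypes -0.375 and -0.403. Hydrophobic residues stood at both positions 6 and 7, counted from the cysteine, in 3.34% and 4.08% of members and in 2.65% and 1.97% of treated-only clonotypes (exact permutation p = 0.333). A pair of neighbouring glycines, a sequence that D genes can code, was in 28.1% and 23.4% of members and in 24.5% and 27.8% of treated-only clonotypes.

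The residues between the germline V end and the germline J end, here called the middle, come from D segments and added nucleotides, or from joints that trimming changed. Members had 3.85 middle residues on average in number 1 and 3.60 in number 2, and treated-only clonotypes 3.72 and 3.88. Spleen clonotypes had 4.38 and 4.42, but this order depended on how many spleen reads were required. Spleen clonotypes of at least 2 reads had 3.66 and 3.65, and those of at least 10 reads, the minimum that applied to the members, had 3.25 and 3.15. The members thus had a shorter middle than all spleen clonotypes and a longer one than spleen clonotypes of 10 or more reads.

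Members found in a spleen had a shorter middle than the rest, in a comparison chosen after the data were seen. In number 1 it was 3.56 ± 1.24 residues (SD over 243 members) for those in spleen 1 and 3.97 ± 1.36 for the other 596. In number 2 it was 3.42 ± 1.42 for 228 members and 3.77 ± 1.22 for 238. For the spleen of the other number the values were 3.14 and 3.96 in number 1 and 2.73 and 3.74 in number 2. Of members with 2 middle residues, 40.4% in number 1 and 70.5% in number 2 were in the spleen of the same number, and of those with 4, 27.2% and 38.1%. At 5 and 6 residues the share was lower still in number 1, at 24.8% and 19.3%, but in number 2 it was higher than at 4, at 46.4% and 40.7%. The 1-residue variants of number 1 described below are part of these means, and few of them were in spleen 1. Where the changed residue lies in a germline end, the middle is counted longer, as in CASSLGGYSDYTV with 8 middle residues. The comparison was not repeated without these variants. Members of a number share a mouse and a spleen library and are not replicates, so no test is given.

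**Figure D4:**
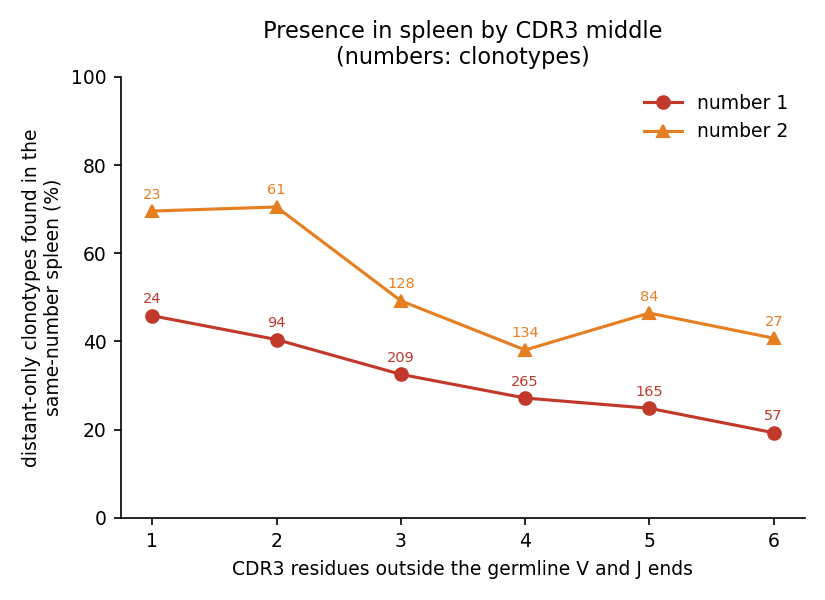
Share of distant-only clonotypes with at least 1 read in the spleen of the same number (y axis, percent) by the number of CDR3 residues outside the germline V and J ends (x axis), for number 1 (circles) and number 2 (triangles), with the number of clonotypes beside each point and values resting on fewer than 20 clonotypes left out. The share is 45.8% at 1 residue and 19.3% at 6 in number 1, and lies between 38.1% and 70.5% in number 2.

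Some members of number 1 differed by 1 residue from a clonotype with the same V and J genes and at least 20 times their reads in the same tumor. There were 43 of these among 839 members and 0 among the 466 of number 2, while treated-only clonotypes had 8 and 4 and shared ones 11 and 8. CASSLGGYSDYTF (TRBV12-1/TRBJ1-2) was the larger clonotype of 20 of them, with 15201 reads in distant tumor 1 and 190 in treated tumor 1. It is itself a shared clonotype and not a member, and its variants had 11 to 52 reads. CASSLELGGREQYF had 10 such variants of 10 to 36 reads and the TRBV29 clonotype 9 of 11 to 37 reads. Of the 20 around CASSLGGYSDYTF, 0 were in spleen 1, and of the 10 and the 9 around the others 1 each. They held 834 reads together. Errors of reverse transcription, PCR or sequencing and true neighbours cannot be told apart without nucleotide sequences, and leaving them out left 1262 members. In number 2, 16 members fell into 7 groups of 1-residue neighbours, the largest being 4 around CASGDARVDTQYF (TRBV13-2/TRBJ2-5), which had 33 reads in distant tumor 2 and 0 in spleen 2.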

How the data were processed

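TCR-β sequences were amplified from total RNA by adaptor-ligation PCR with constant region primers and read as paired 300 bp ends on a MiSeq, per the labels' protocols, which name no molecular identifiers. The deposited read counts per TRBV, TRBJ and CDR3 are whole numbers that differ in total between libraries, and were used as raw reads. The authors' percent values, rounded shares of productive reads, were matched to within 0.00499 points. No aligner or germline reference is named: not given in the sources used here.

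Sequences with a * or . mark (4.45% to 6.62% of a library's reads) were left out. Libraries with the same title number were taken as 1 mouse, since the series describes 2 mice. As a check, deviations of TRBV usage from the class means were correlated between classes of the same number, over 18 genes. The correlation of distant-only clonotypes was 0.261 with treated-only, -0.156 with shared and -0.398 with spleen clonotypes. These values do not settle whether a title number is 1 mouse. Clonotypes per gene in 8 columns (distant-only, treated-only, shared and spleen of both numbers) were tested with edgeR 4.0.16 in R 4.3.3 with low-count filtering and scaling by column total. This leaves 4 residual degrees of freedom. DESeq2 1.42.0 was an alternative. The standard error of an edgeR fold change is its size over the square root of the F statistic. Classes of 1 mouse are not independent, and p-values measure the spread between these libraries. Exact permutation tests used SciPy 1.17.1. The germline CDR3 ends were read from GENCODE M21, to which all 35 genes matched. TRBV12-1 and TRBV12-2, and the TRBV13 genes, are near copies between which the authors' assignment could split reads. Intervals and floors cover counting error only, because PCR can multiply a molecule into many reads.

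The members and lists were chosen with earlier results of these data known. Named were the 10 largest members per number where their CDR3 has at most 14 residues or by genes and length, members in both numbers, the leading members in the spleen and in the other number's tumors, the largest 1-residue groups, and the TRBV and TRBJ genes past a threshold of 0.05 or with the most members. From each of these, examples are printed. TRBV14 and TRBJ1-2 were named after their values were seen. The middle residues, the size ranges, the comparison of members in and out of the spleen and the spleen read minimums were added after seeing the data.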

Additional observations from a re-analysis of the deposited data

How the results depend on the processing

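The number of distant-only clonotypes follows its thresholds: 2658 at a minimum of 5 reads, 512 at 20, 89 at 50, 868 with both tumors drawn down to 42320 reads, and 466 to 839 with 1 number left out. Their mean share of distant tumor reads, 35.0%, became 42.9%, 26.2% and 16.5% at those minimums and 30.8% without the largest member of each number. The mean length difference from treated-only clonotypes, -0.0816 residues, reversed to 0.180 when weighted by reads and ranged from -0.256 to 0.0925 with 1 number left out. The TRBV call against treated-only clonotypes fell to 0 genes at 20 reads and with spleen clonotypes of 2 or more reads, and was 0 to 1 with 1 library's class left out. Without the treated-only clonotypes of number 1 the gene called was TRBV12-1, at a log2 fold change of 1.64 and an edgeR adjusted p of 0.0332, in place of TRBV16. The TRBV count against spleen was 0 to 1 with 1 class left out. The TRBJ count against spleen was 1 by DESeq2 and 0 to 1 with 1 class left out. The fit with a replicate block gave 1 TRBV gene in each comparison and 0 TRBJ genes, so pairing the numbers changed no call. Where 1 column is left out, the lone one is assumed to vary like the others. The difference in spleen presence from treated-only clonotypes was 16.8 points as a mean of both numbers. That mean ran from 12.5 to 25.5 over the alternatives, and the numbers alone gave 11.7 and 21.9. By number, it ran from 8.62 points (number 1, at least 2 spleen reads) to 36.5 (number 2, at least 50 tumor reads). It was smaller in the lowest size range of number 2, at 31.1% against 25.6%. The causes of these shifts were not tested. With 2 mice, and no molecular identifiers, read counts near 10 limit which clonotypes enter the class.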

Other observations

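Sequences with a stop or frame mark, chosen by the same read rule, numbered 30 in distant tumor 1 and 9 in distant tumor 2, with 806 and 161 reads. In the treated tumors 74 and 22 met the mirrored rule. Of those of the distant tumors, 0 of 30 and 1 of 9 were in the spleen of the same number, against 29.0% and 48.9% of the distant-only clonotypes. Those of the treated tumors were also rarely found there, at 4 of 74 and 1 of 22, against 17.3% and 27.0% of the treated-only clonotypes.

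A CDR3 can occur under more than 1 V or J gene. Of the members, 24 of 839 in number 1 and 8 of 466 in number 2 had a CDR3 that the treated tumor of the same number held under another TRBV or TRBJ gene. The largest of those treated tumor counts were 116 and 12 reads. With clonotypes defined by the CDR3 alone, 1275 met the rule instead of 1305.

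By V and J together, TRBV16 with TRBJ2-7 had 36 members, TRBV13-2 with TRBJ2-7 had 35 and TRBV12-1 with TRBJ1-2 had 26. In the first pair 31 were of number 1, and in the third all 26 were, of which 20 were 1-residue variants and 2 were found in spleen 1. TRBV13-2 with TRBJ2-7 had 25 members in number 1 and 10 in number 2, and 15 of these 35 were in the spleen of the same number.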
